A study of Homo sapiens with 6 samples.

Results

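The genes described here encode the cytosolic translation initiation factors (eIF) and elongation factors (eEF), together with the inhibitors of eIF4E and the enzymes that modify the elongation factors. They are the protein-coding rows of the deposited gene table whose symbols begin with EIF and a digit from 1 to 6, or with EEF1 or EEF2, leaving out the EIF2AK kinases. Of 58825 genes, 67 met this rule. The table lists the types of all transcripts of a gene, so a gene was taken where protein_coding was among its types, and for 10 of the 67 it was the only type. A further 140 rows with the same name pattern have no protein-coding transcript, 127 of them processed pseudogenes, and are not members.

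The libraries come from PC9, an established human lung adenocarcinoma line with an activating EGFR mutation that makes it sensitive to the EGFR inhibitor gefitinib. Cells of 3 libraries overexpressed the A allele of FOXM1 rs3742076 and cells of the other 3 the G allele; FOXM1 is a transcription factor that drives mitotic genes. All 6 were exposed to gefitinib at 100 nM for 24 h, so both groups share the drug and a FOXM1 transgene, and the design compares G with A. The labels do not name the vector or its promoter, and do not say whether each line is 1 clone or whether the replicates were separate cultures. The p-values rest on the spread of these libraries alone, and that spread may be technical.

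Initiation begins when eIF2, loaded with GTP and the initiator tRNA, joins the small ribosomal subunit with eIF1, eIF1A, eIF3 and eIF5, and eIF4F (the cap-binding eIF4E, the scaffold eIF4G and the helicase eIF4A) brings in the mRNA. During elongation eEF1A delivers aminoacyl-tRNA, the eEF1B subunits exchange its GDP for GTP, and eEF2 moves the ribosome along. EGFR signalling reaches this machinery largely through mTORC1, which phosphorylates the 4E-BP inhibitors so that they release eIF4E and which controls the translation of mRNAs that start with a terminal oligopyrimidine (TOP) tract, among them those of most elongation factors. That control acts mainly on ribosome loading and on protein activity, which the RNA levels measured here do not show.

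A TOP tract is a C at the first base of the mRNA followed by an unbroken run of pyrimidines. The annotated start sites of the members were searched for it in the RefSeq promoter table (GRCh38.p14), on the gene's own strand, as a C at the start followed by at least 4 further bases that are C or T. Of 67 members, 53 were matched in that table by symbol, and 49 of those were tested for expression. EEF1A2 and the textbook TOP genes EEF1D, EIF3E and EIF3H were among those not matched, so their starts were not searched. The windows below show the 15 bases before the annotated start in lower case and the first 15 transcribed bases in capitals, 5′ to 3′. The first lines are factors with the tract, chosen because they include the most abundant member and the pair of near-identical copies EIF2S3 and EIF2S3B.
EEF1A1, chr6:73521018-73521047, minus strand: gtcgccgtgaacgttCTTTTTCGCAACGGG
EEF1B2, chr2:206159880-206159909, plus strand: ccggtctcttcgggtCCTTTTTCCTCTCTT
EEF2, chr19:3985449-3985478, minus strand: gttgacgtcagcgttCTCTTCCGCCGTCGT
EIF3F, chr11:7987322-7987351, plus strand: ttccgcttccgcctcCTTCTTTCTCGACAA
EIF4B, chr12:53006441-53006470, plus strand: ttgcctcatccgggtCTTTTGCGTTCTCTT
EIF2S3, chrX:24054941-24054970, plus strand: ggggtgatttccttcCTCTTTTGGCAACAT
EIF2S3B, chr12:10505875-10505904, plus strand: ggggtgactttcttcCTCTTTTGGCAACAT
The next lines have no such tract at the annotated start, and are shown because 3 of them had among the smallest unadjusted p-values of the set and EEF1G is the second most abundant member.
EEF1G, chr11:62573877-62573906, minus strand: tctcccgggcggcttACTTTGCGGCAGCGC
EIF6, chr20:35284703-35284732, minus strand: ttacttggtaagctgGTGTGAGGGGAACCT
EIF4EBP2, chr10:70404130-70404159, plus strand: ctcccgccttcgcccGCTTCCGGTCGTCGT
EEF2K, chr16:22206263-22206292, plus strand: tgcccgcccgcttctGCTCAACCTAGACCA

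The tract began at any annotated start of 13 of the 49 tested and matched members, or 26.5%. EEF1B2 and EIF2S3B were counted though each has another annotated start without it, not printed above. They are EEF1A1, EEF1B2, EEF2, EIF2A, EIF2D, EIF2S3, EIF2S3B, EIF3D, EIF3F, EIF3K, EIF3M, EIF4A2 and EIF4B. Among all 35116 promoters of the table, counted singly rather than by gene, the share was 4.07%. Counted by gene it was 7.64% among the 8651 matched protein-coding genes that were tested. Among 67 ribosomal protein genes, the best known TOP genes, it was 70.1%. EEF1G is a textbook TOP gene, but its annotated start is an A, so it was not counted. The C after that A is followed by fewer than the 4 pyrimidines required, so a start there would not be counted either. A match describes these letters only, and start sites were not measured here.

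The libraries held an estimated 19760000 to 23360000 read-pair equivalents, found only within a window set in advance, but their composition separated the groups. In A libraries 12451 to 12548 genes reached 1 FPKM and in G libraries 12700 to 12858; FPKM is the fragments counted per kilobase of transcript and set relative to the library's mapped fragments. The mitochondrial genome's genes held 22.1% ± 0.070 (SD, n = 3) of all FPKM in the A group and 18.7% ± 0.98 (SD, n = 3) in the G group, without overlap, and results that turn with the scaling are given below. All 6 epithelial markers examined (EPCAM, CDH1 and keratins) were expressed, all 4 leukocyte and all 3 endothelial markers stayed under the 1 FPKM filter, and of 4 fibroblast markers 1 passed it, with DCN listed at 0 throughout. FOXM1 itself was at 25.5, 10.47 and 10.1 FPKM in A replicates 1 to 3 and at 14.6, 14.3 and 13.96 FPKM in the G libraries. A replicate 1 stood apart in this gene value, which does not separate RNA of the transgene from that of the cells' own FOXM1. In bulk RNA a factor's lower level and a smaller share of cells expressing it cannot be told apart.

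Of all FPKM in a library, the members held 1.65% ± 0.0036 (SD, n = 3) in the A group and 1.69% ± 0.065 (SD, n = 3) in the G group. The G values were 1.66%, 1.64% and 1.76%, overlapping the A values of 1.65%, 1.64% and 1.65%. Elongation factors dominated this sum. EEF1A1, EEF1G, EEF2 and EEF1A2 together held 60.1% ± 0.28 (SD, n = 3) of it in A libraries and 58.6% ± 0.85 (SD, n = 3) in G libraries, with every G library (57.6%, 58.96% and 59.2%) below every A library (59.9% to 60.4%).

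The order of the abundant members was the same in every library as far as the first 4 ranks. EEF1A1, which carries aminoacyl-tRNA to the ribosome, ranged from 1072 to 1301 FPKM. EEF1G, the structural subunit of the eEF1B exchange complex, ranged from 666 to 771 FPKM, the translocase EEF2 from 482 to 519 FPKM, and EEF1A2, the second eEF1A form that is best known from muscle and neurons, from 147 to 192 FPKM. These ranges did not touch. EIF4H, a cofactor of the eIF4A helicase, followed at 116 to 125 FPKM, and below it EIF3I (100.2 to 109.7 FPKM) and EIF2S3 (96.1 to 105 FPKM) overlapped, as did EIF3L (74.0 to 89.4 FPKM) and EEF1B2 (73.2 to 85.0 FPKM). At the other end EIF4E, the cap-binding protein, was listed at only 1.10 to 1.76 FPKM, next to EIF4E3 and EIF5A2.

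**Figure D1:**
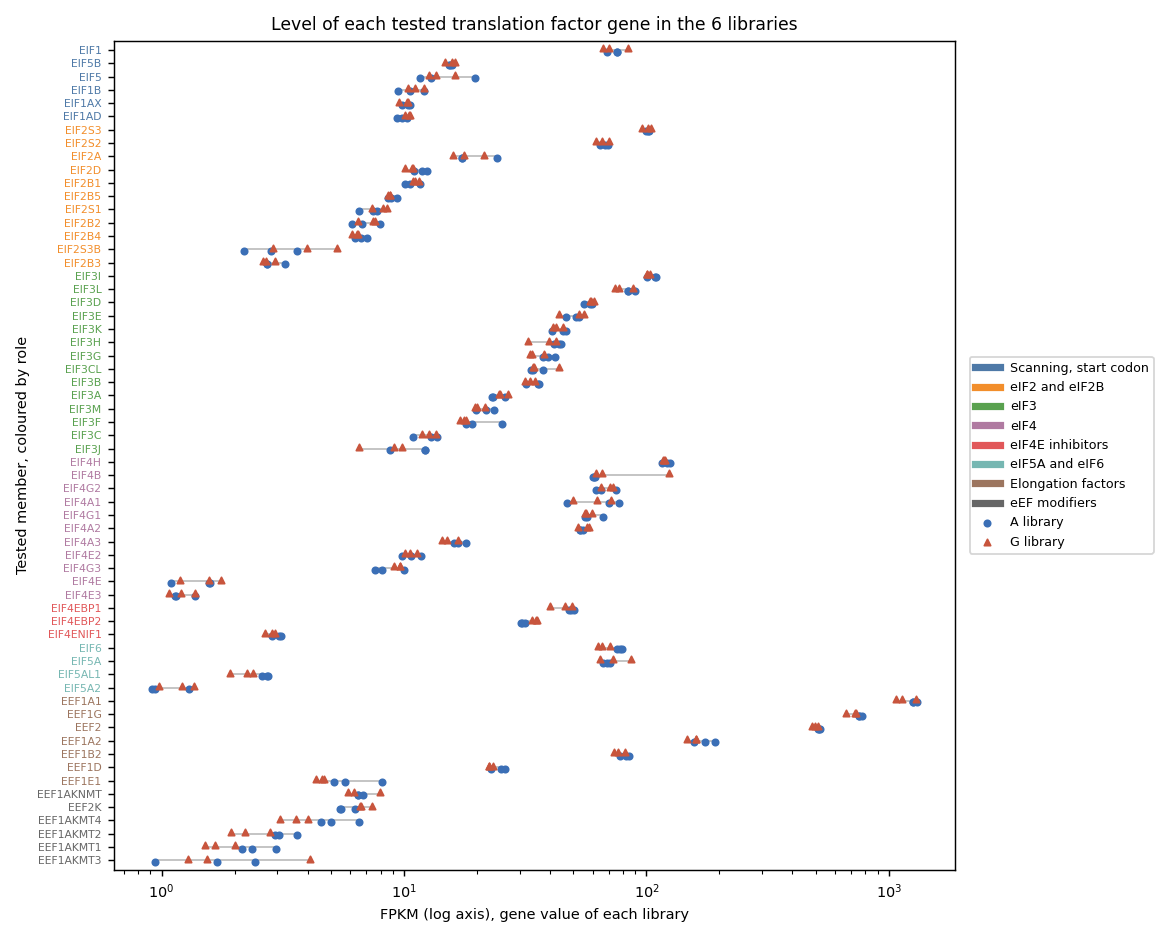
Gene FPKM of the 62 tested members in each library (horizontal log axis), with 1 row per gene coloured by role, blue circles for A libraries and red triangles for G libraries. EEF1A1, EEF1G, EEF2 and EEF1A2 lie above the other members in all 6 libraries, and the symbols of both groups lie close together for most genes.

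Part of this order reflects how the gene value was made. For all 65 members with a value, the gene FPKM was the length-weighted sum of its transcripts divided by a fixed length, within 1%, and that length lay within 1% of the merged exons of GENCODE 29 for 47 members and within 10% for 60. A gene with many long annotated exons that its main mRNA does not use is therefore listed low. EEF1D, the nucleotide exchange subunit of the eEF1B complex, was listed at 23.7 FPKM on average over the 6 libraries but its transcripts summed to 204 FPKM, which moved it from rank 29 to rank 7. EIF3E went from 50.3 to 244 FPKM, EIF4A1 from 63.0 to 227 FPKM, and EIF4E from 1.46 to 5.10 FPKM on the same basis. EIF4E was low on both scales, at ranks 60 and 56 of the members. Its 5 processed pseudogenes were listed at 6.36 FPKM on average, 81.3% of the sum of gene and pseudogenes and the largest such share of any member, and whether reads of EIF4E were assigned to them was not tested.

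Between G and A, no member passed the test. The change of each gene was taken as G minus A on the log2(FPKM + 1) scale, which understates changes of low genes, and tested with limma-trend over all 12787 genes that reached 1 FPKM in at least 3 libraries, at a threshold of 0.05 on the p adjusted by Benjamini and Hochberg's method. In all 14 genes were called, 0.109% of those tested, and 0 of the 62 tested members. Of those 14, 4 were higher in G (0.0313%) and 10 lower (0.0782%). The smallest adjusted p of a member was 0.187, for EIF6. At an unadjusted p under 0.05 there were 9 members, 14.5%, where the background was 17.3%, with 7 lower in G (background 6.82%) and 2 higher (background 10.5%). The A and G libraries did not overlap for 11 members, 17.7%, where the background was 24.9%. Of these, 8 were lower in G (background 9.57%) and 3 higher (background 15.4%). The shares of members in either direction together were below those of all genes.

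The 95% intervals of the changes, converted from the log2(FPKM + 1) scale to FPKM relative to the A level, lay within 1.5-fold in either direction for 50 of the 62 tested members and within 1.25-fold for 31. The 12 with wider intervals were the methyltransferases EEF1AKMT1, EEF1AKMT2, EEF1AKMT3 and EEF1AKMT4, with EEF1E1, EIF2S3B, EIF3J, EIF4A1, EIF4B, EIF4E, EIF5A2 and EIF5AL1. The other 5 members were not tested, as they did not reach 1 FPKM in at least 3 libraries. They are EEF2KMT, EIF1AY, EIF4E1B, EIF4EBP3 and the readthrough gene EEF1AKMT4-ECE2.

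More members lay below 0 than above it. Of the 62, 39 had a negative change, 62.9%, where 44.9% of all tested genes did, and the median was -0.03 against 0.02 for all genes. Among genes at 5 FPKM or more in at least 3 libraries the contrast was smaller. There 32 of 51 members and 3492 of all 6759 genes were negative, with medians of -0.03 and -0.0070. The direction of the members' median depended on the scaling. With every library scaled to the same summed FPKM the median of all genes was 0.11, that of the members 0.07, and 16 of 62 members were negative, while quantile normalization gave medians of 0.00083 and -0.0059 with 33 negative. Changes below are on the deposited scale.

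**Figure D2:**
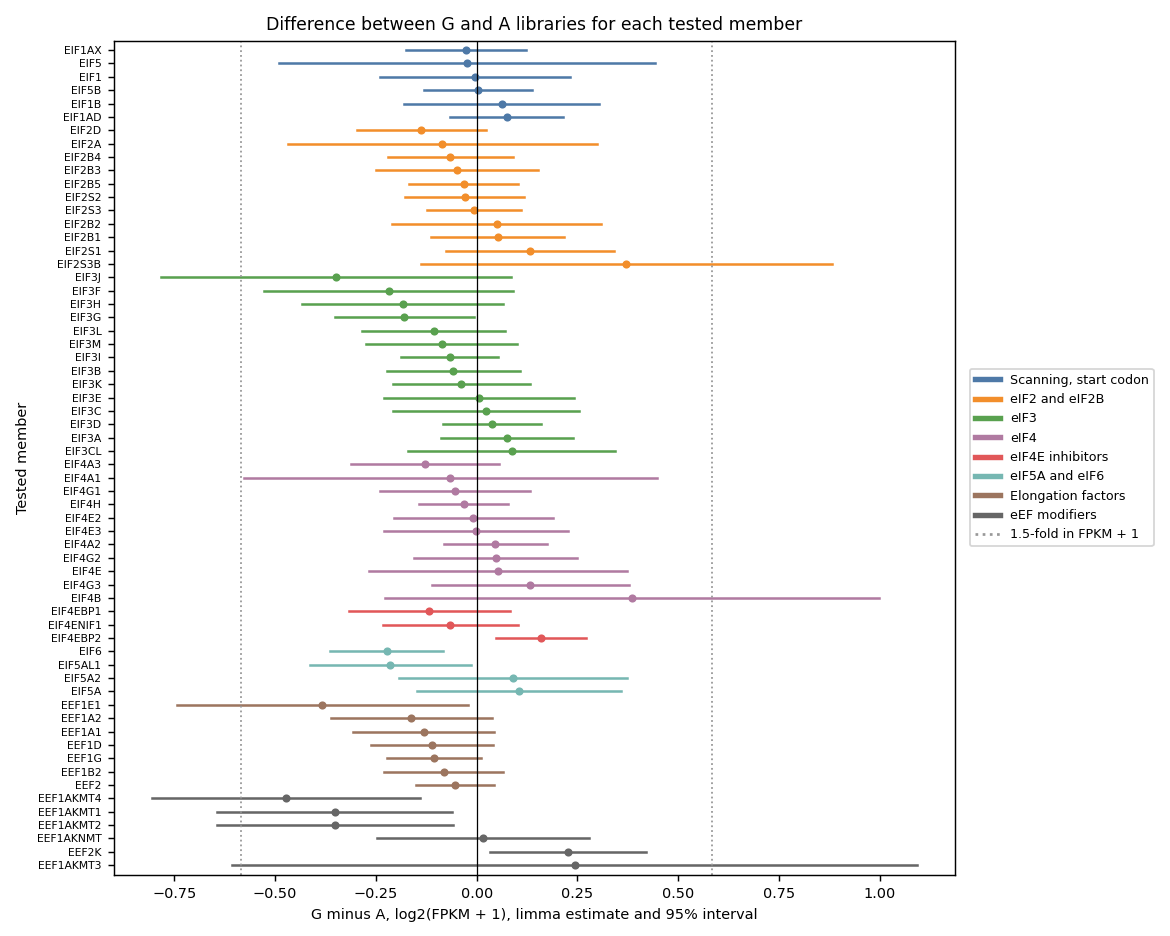
Difference between G and A (horizontal axis, log2(FPKM + 1) scale) of each tested member as a point with its 95% interval, coloured by role; the solid line marks 0 and the dotted lines a 1.5-fold difference in FPKM + 1. No member passed the threshold, and the 7 members named as elongation factors all lie left of 0. The widest intervals include those of EEF1AKMT3, EIF4B, EIF4A1 and EIF2S3B.

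All 7 members named as elongation factors had a negative change, with a median of -0.11, and none was called. They include EEF1E1, which has another role (below). EEF1A1 (chromosome 6, 73515750 to 73523797) was at 1252, 1257 and 1301 FPKM in A replicates 1 to 3 and at 1129, 1072 and 1287 FPKM in G replicates 1 to 3. G replicates 1 and 2 were below all A libraries and G replicate 3 lay among them. The change was -0.13 with a 95% interval of -0.31 to 0.04 (limma adjusted p = 0.40). EEF1G (chromosome 11, 62559596 to 62574086) was at 754, 771 and 754 FPKM in A libraries and at 666, 729 and 724 FPKM in G libraries, without overlap, for a change of -0.11 (interval -0.22 to 0.01, limma adjusted p = 0.32). Single libraries moved both values: EEF1A1 was at -0.08 without G replicate 2 and -0.21 without G replicate 3, and EEF1G at -0.06 without G replicate 1.

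The other elongation factors overlapped between the groups, apart from EEF1E1. EEF2 was at 514, 519 and 510.1 FPKM in A libraries and at 482, 511 and 494 FPKM in G libraries. EEF1A2 was at 174, 192 and 157 FPKM against 160.1, 147 and 159.6 FPKM, so the ratio of EEF1A1 to its paralogue EEF1A2 was 7.33 ± 0.88 in A libraries and 7.47 ± 0.53 in G libraries (SD, n = 3 each). The exchange subunits EEF1B2 and EEF1D had differences of -0.08 and -0.11, again with overlapping groups. With 1 library left out EEF1B2 lay between -0.12 and -0.04, and EEF1D was at -0.07 without A replicate 2.

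EEF1E1, also called AIMP3 or p18, is named as an elongation factor but is a scaffold protein of the multi-tRNA synthetase complex. It was at 5.68, 5.14 and 8.12 FPKM in A libraries and at 4.34, 4.57 and 4.67 FPKM in G libraries. All G libraries were lower, and A replicate 3 was the highest by far. The change was -0.38 (interval -0.74 to -0.02, limma adjusted p = 0.27), and -0.21 without A replicate 3.

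The shared direction of the 7 members named as elongation factors was not kept under every scaling. Scaled to equal summed FPKM, 4 of 7 were negative with a median of -0.0069, and with quantile normalization 4 of 7 with a median of -0.02. Relative to the median of all genes, the median of the elongation factors was -0.13 as deposited, -0.12 with equal sums and -0.02 with quantile normalization. Leaving out any 1 library kept all 7 negative, with medians between -0.14 and -0.09. The textbook TOP members (EEF1A1, EEF1B2, EEF1D, EEF1G, EEF2, EIF3E, EIF3F, EIF3H and EIF4B) had 7 negative of 9, a median of -0.11 and 0 called. Equal sums left 4 of 9 negative with a median of 0.0030, and quantile normalization 4 of 9 with a median of 0.04, also 0.04 relative to all genes. With median-ratio factors 8 of 9 were negative, with a median of -0.13.

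Medians of the members with and without the start-site tract were close. The 13 members with it had a median change of -0.05, with 9 negative, and the 36 without it a median of -0.02, with 22 negative. Over all tested protein-coding genes in the promoter table the medians were -0.0034 with the tract and 0.03 without it. Without the members and the ribosomal protein genes they were 0.0158 and 0.0258. The 67 ribosomal protein genes, of which 47 had the tract, had medians of -0.13 with it and -0.11 without it. The members' medians lay between those of the ribosomal protein genes and those of all genes.

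**Figure D3:**
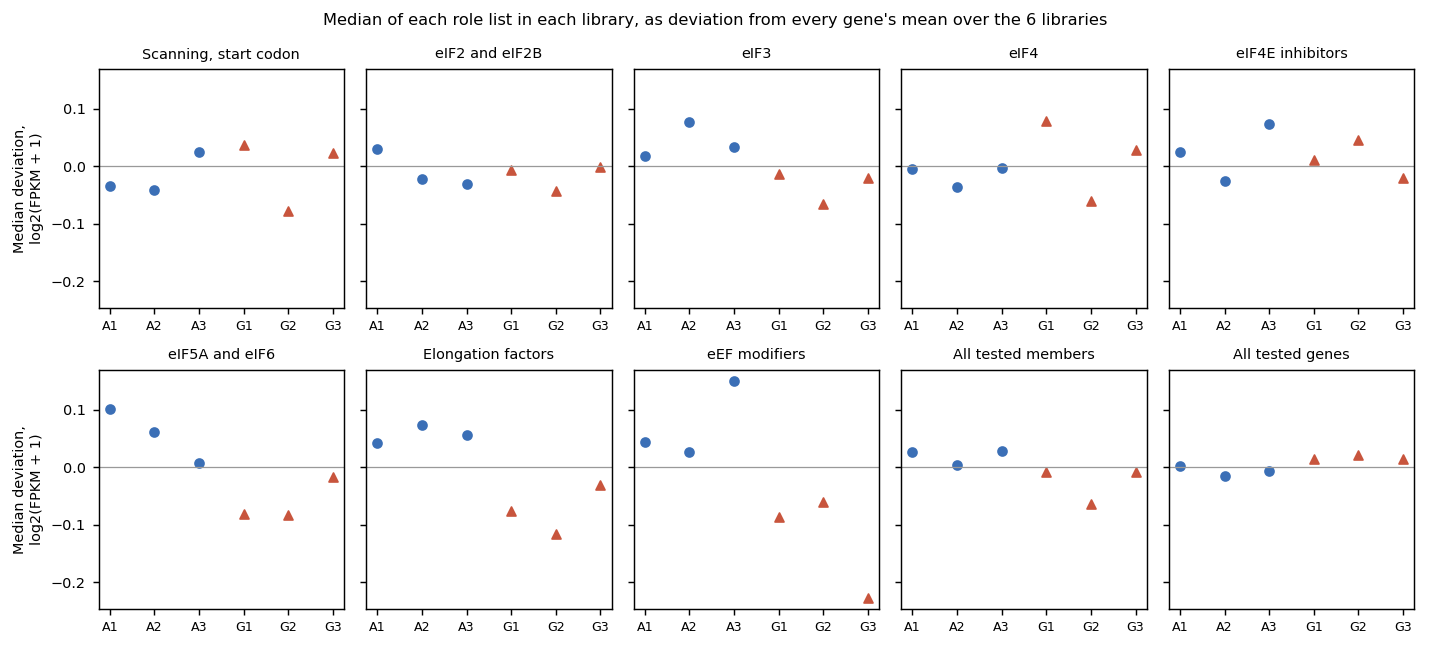
Median over the genes of each role in each library (vertical axis), as the deviation of log2(FPKM + 1) from each gene's mean over the 6 libraries, with blue circles for A and red triangles for G libraries. The elongation factors lie at 0.04 to 0.07 in A libraries and at -0.12 to -0.03 in G libraries, and the eIF3, eIF5A and eIF6, and eEF modifier groups are without overlap in the same direction. The scanning, eIF2 and eIF4 groups and the eIF4E inhibitors overlap. All tested genes lie near 0 but are also without overlap, in the other direction, at -0.016 to 0.0022 in A libraries and 0.014 to 0.021 in G libraries.

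The enzymes that modify elongation factors held 4 of the 11 members without overlap, 4 of 6 tested (background 24.9%), 3 of them lower in G (background 9.57%) and 1 higher (background 15.4%), and 0 were called. EEF2K, the kinase that phosphorylates and inhibits eEF2, was at 6.29, 5.48 and 5.43 FPKM in A libraries and at 6.65, 6.55 and 7.41 FPKM in G libraries. The G libraries were all higher, for a change of 0.23 (interval 0.03 to 0.42, limma adjusted p = 0.24). EEF1AKNMT, which methylates eEF1A at its first residue and at a lysine, had the highest mean gene FPKM of these enzymes over the 6 libraries, just above EEF2K, and overlapped, at 6.79, 6.44 and 6.44 FPKM against 7.98, 5.89 and 6.19 FPKM.

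Among the lysine methyltransferases of eEF1A, 3 were lower in every G library than in any A library. EEF1AKMT4 was at 4.54, 5.02 and 6.52 FPKM in A libraries and at 3.58, 4.02 and 3.07 FPKM in G libraries, a change of -0.47 (interval -0.80 to -0.14, limma adjusted p = 0.20). EEF1AKMT1 was at 2.35, 2.98 and 2.15 FPKM against 1.67, 2.02 and 1.51 FPKM. EEF1AKMT2 was at 3.06, 2.94 and 3.63 FPKM against 2.81, 2.20 and 1.93 FPKM. The main transcript of EEF1AKMT2, ENST00000464099, is annotated as a target of nonsense-mediated decay. Coding transcripts held 23.2%, 17.6% and 6.2% of the gene's transcript FPKM in A libraries and 17.2%, 35.3% and 37.7% in G libraries. The lower gene value of EEF1AKMT2 is therefore not a measure of its coding RNA.

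The changes of EEF1AKMT1 and EEF1AKMT2 were both -0.35 (interval -0.64 to -0.06, limma adjusted p = 0.24). EEF1AKMT3 overlapped widely, from 0.939 to 2.42 FPKM in A libraries and from 1.29 to 4.10 FPKM in G libraries. EEF1AKMT4 shares its start with the readthrough gene EEF1AKMT4-ECE2, which had no estimate in any library. These genes are low, so their values rest on few fragments.

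The eIF5A and eIF6 group held 2 of 4 tested members without overlap, both lower in G (background 9.57%). EIF6 (chromosome 20, 35278911 to 35284985), which keeps the large ribosomal subunit from joining too early and takes part in its assembly, was at 75.9, 79.4 and 77.6 FPKM in A libraries and at 62.8, 65.5 and 70.9 FPKM in G libraries. Every G library was lower, by -0.22 (interval -0.36 to -0.08, limma adjusted p = 0.187), and the change was -0.12 with equal FPKM sums. EIF5A, the hypusine-bearing factor that helps ribosomes through difficult peptide bonds, was at 66.5, 70.6 and 68.5 FPKM against 72.5, 85.9 and 64.4 FPKM, and its paralogue EIF5A2 at 1.2999, 0.916 and 0.941 FPKM against 1.21, 0.978 and 1.36 FPKM. Both overlapped, and the ratio of EIF5A to EIF5A2 was 67.0 ± 13.9 in A libraries and 65.0 ± 20.7 in G libraries (SD, n = 3 each).

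EIF5AL1 is a near-identical copy of EIF5A without introns. It was at 2.73, 2.76 and 2.60 FPKM in A libraries and at 1.92, 2.26 and 2.39 FPKM in G libraries, lower in all G libraries (change -0.21, limma adjusted p = 0.27). Reads of these genes can be assigned to either, so the value of EIF5AL1 is uncertain. Summed, EIF5A and EIF5AL1 were at 71.2 ± 2.06 FPKM in A libraries and 76.5 ± 10.9 FPKM in G libraries (SD, n = 3; exact two-sided permutation p = 0.6, where 3 against 3 cannot go below 0.1).

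The inhibitors of eIF4E went in different directions. EIF4EBP2 (chromosome 10, 70404145 to 70428618) was at 31.7, 30.4 and 30.8 FPKM in A libraries and at 35.3, 33.9 and 34.9 FPKM in G libraries. All G libraries were higher, with little spread, for a change of 0.16 (interval 0.05 to 0.27, limma adjusted p = 0.20) that was 0.26 with equal FPKM sums. EIF4EBP1, the most abundant of the 4E-BPs here, was at 47.8, 48.8 and 50.2 FPKM in A libraries and at 39.9, 49.3 and 46.3 FPKM in G libraries, with overlap (change -0.12, limma adjusted p = 0.50; -0.03 without G replicate 1 and -0.18 without G replicate 2).

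The ratio of EIF4EBP1 to EIF4EBP2 was 1.51, 1.603 and 1.63 in A replicates 1 to 3 and 1.13, 1.46 and 1.32 in G replicates 1 to 3. The groups did not overlap in it, and their means were 1.58 ± 0.065 and 1.304 ± 0.16 (SD, n = 3 each), not tested further. EIF4ENIF1, which carries eIF4E into the nucleus and to P-bodies, ranged from 2.68 to 3.12 FPKM. EIF4EBP3 stayed under 1 FPKM in all libraries and lies inside the readthrough gene ANKHD1-EIF4EBP3, which was at 8.19 to 8.65 FPKM in A libraries and at 9.32 to 11.2 FPKM in G libraries.

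**Figure D4:**
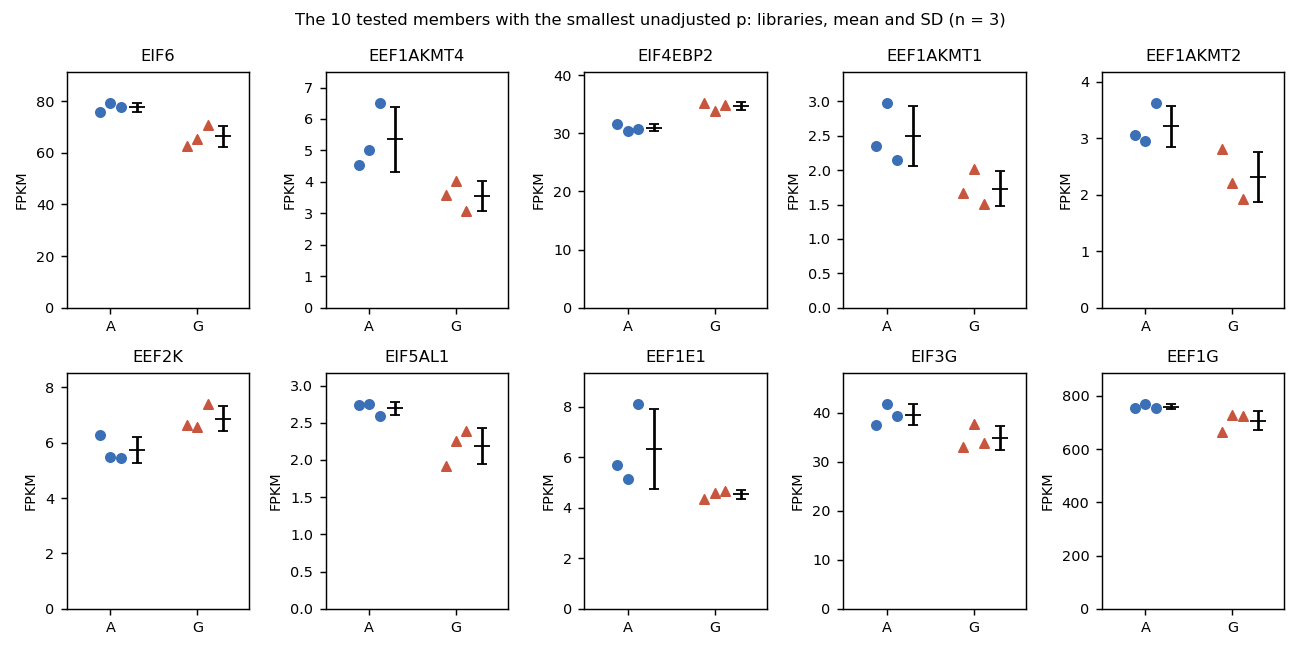
FPKM in each A and G library of the 10 tested members with the smallest unadjusted p, with the mean and SD of each group (n = 3) beside the points; each panel starts at 0. The groups do not overlap for 9 of these genes and overlap for EIF3G, with the G libraries lower for all of those 9 except EIF4EBP2 and EEF2K. These genes were picked by p in the same libraries. Over all tested members 17.7% were without overlap, and over all tested genes 24.9%.

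Of the 11 tested eIF4 factors, 1 was without overlap (background 24.9%) and 0 were called. EIF4B, the cofactor that stimulates the eIF4A helicase and is phosphorylated by S6 kinase, was at 59.9, 60.5 and 61.4 FPKM in A libraries and at 65.8, 61.8 and 123 FPKM in G libraries. G replicate 3 stood apart from the other 5. The change was 0.39 (interval -0.23 to 1.00, limma adjusted p = 0.47), and 0.07 without G replicate 3. In that library the transcript ENST00000262056 was listed at 176.5 FPKM against 40.6 to 69.1 FPKM in the other 5.

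The remaining eIF4 factors overlapped. EIF4H was at 116, 122 and 125 FPKM in A libraries and at 117, 118 and 119.8 FPKM in G libraries. The helicase EIF4A1 varied more within groups than between them, at 47.1, 69.9 and 77.2 FPKM against 71.4, 49.6 and 62.6 FPKM, while its paralogue EIF4A2 stayed between 52.3 and 57.7 FPKM in all libraries. The ratio of EIF4A1 to EIF4A2 was 1.20 ± 0.28 in A libraries and 1.10 ± 0.14 in G libraries (SD, n = 3 each).

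The eIF4G scaffolds overlapped between the groups too. EIF4G1 was at 66.3, 56.9 and 55.8 FPKM in A libraries and at 55.8, 56.5 and 59.5 FPKM in G libraries. EIF4G2 (also DAP5), which lacks the eIF4E-binding part, was at 74.95, 62.2 and 64.8 FPKM against 72.6, 65.1 and 70.6 FPKM, and EIF4G3 at 10.0, 7.56 and 8.13 FPKM against 9.61, 9.08 and 9.59 FPKM. A replicate 1 was the highest library for all 3 genes. Their changes were -0.05, 0.05 and 0.13, with limma adjusted p-values of 0.74, 0.80 and 0.53, and that of EIF4G3 was 0.24 without A replicate 1 and 0.06 without A replicate 2.

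Among the 14 eIF3 subunits, 9 changes were negative and 5 positive, with a median of -0.06. None of the 14 was without overlap (background 24.9%). EIF3I was the most abundant on the gene scale, at 101, 109.7 and 109 FPKM in A libraries and at 104, 100.2 and 101 FPKM in G libraries. EIF3G, an RNA-binding subunit, had the smallest unadjusted p of the eIF3 group. It was at 37.5, 41.9 and 39.4 FPKM against 33.0, 37.7 and 33.9 FPKM, with G replicate 2 just above A replicate 1 (change -0.18, interval -0.35 to -0.01, limma adjusted p = 0.27).

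The core subunits EIF3A and EIF3B lay on opposite sides of 0, EIF3A at 24.1 ± 1.6 against 25.5 ± 1.24 FPKM and EIF3B at 34.6 ± 2.23 against 33.2 ± 1.72 FPKM (SD, n = 3 each). EIF3J, a loosely bound subunit, had the most negative change of the eIF3 group, at 8.77, 12.2 and 12.2 FPKM in A libraries and 9.83, 6.49 and 9.11 FPKM in G libraries (-0.35, limma adjusted p = 0.37). Its change was -0.19 without G replicate 2, and 0.24 with transcript values summed instead. EIF3F was at 17.9, 19.0 and 25.5 FPKM against 17.6, 17.1 and 18.0 FPKM, a change of -0.22 that was -0.07 without A replicate 3.

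EIF3C and EIF3CL are near-identical copies on chromosome 16 between which reads cannot be assigned with certainty. EIF3CL was listed 2.82 ± 0.52 times as high as EIF3C in A libraries and 2.96 ± 0.61 times in G libraries (SD, n = 3 each). Their sum was 47.4 ± 0.78 FPKM and 50.0 ± 4.62 FPKM (SD, n = 3; exact two-sided permutation p = 0.7).

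In the eIF2 group, which brings in the initiator tRNA, 7 of 11 changes were negative and the median was -0.03. EIF2S3, the subunit that binds GTP and the tRNA, was at 102, 101 and 99.8 FPKM in A libraries and at 105, 96.1 and 101 FPKM in G libraries. EIF2S1, the subunit whose phosphorylation shuts initiation down under stress, was at 7.24 ± 0.65 against 8.02 ± 0.59 FPKM, and EIF2S2 at 67.1 ± 2.35 against 65.8 ± 4.10 FPKM (SD, n = 3 each). All 3 subunits overlapped between the groups.

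The 5 subunits of eIF2B, the factor that reloads eIF2 with GTP, had means between 2.75 and 11.2 FPKM and overlapped as well. EIF2D, which can place tRNA on the ribosome without GTP, was the 1 of 11 members of this group without overlap (background 24.9%). It was at 11.9, 10.98 and 12.4 FPKM against 10.1, 10.8 and 10.9 FPKM (change -0.14, limma adjusted p = 0.35). EIF2S3B, a copy of EIF2S3 with a nearly identical start window in the lines above, was at 3.63, 2.82 and 2.19 FPKM against 5.31, 2.88 and 3.98 FPKM. Adding it to EIF2S3 left the sum at 103.9 ± 1.83 and 104.7 ± 5.54 FPKM (SD, n = 3; exact two-sided permutation p = 0.9).

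The scanning and start codon factors were the most even group, with 3 negative and 3 positive changes between -0.03 and 0.07. None of the 6 tested was without overlap (background 24.9%). EIF1, which guards the choice of the start codon, was at 68.7, 75.7 and 75.4 FPKM in A libraries and at 84.0, 66.2 and 69.8 FPKM in G libraries. EIF5, the GTPase activator of eIF2, was at 14.7 ± 4.25 against 14.2 ± 1.82 FPKM, and EIF5B, which joins the ribosomal subunits, at 15.5 ± 0.23 against 15.6 ± 0.71 FPKM (SD, n = 3 each).

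Within genes, the transcripts named as the main one moved between libraries. The members have 717 transcripts in the table, 257 of which were tested, and 0 were called, where the background over all transcripts was 0.147%. At an unadjusted p under 0.05 there were 23, 8.95%, where the background was 7.81%. Of 62 genes, 34 had the same most abundant transcript in all libraries and 28 had more than 1, up to 4 for EIF4G1. The smallest adjusted p was 0.273, for ENST00000392222, a coding transcript of EEF1B2 at 16.4, 13.0 and 14.2 FPKM in A libraries and at 5.61, 3.34 and 6.71 FPKM in G libraries.

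EEF1A1 was assigned mostly to ENST00000331523, at 3361, 3406 and 3494 FPKM in A libraries and 2519 and 3442 FPKM in G replicates 2 and 3. In G replicate 1 that transcript was listed at 0.0016 FPKM, while the retained-intron form ENST00000490569 was at 1046 FPKM there and between 1.29 and 7.45 FPKM elsewhere. The gene value of EEF1A1 in that library, 1129 FPKM, lay between those of the other G libraries. The main coding transcript of EEF1G, ENST00000329251, was at 1304, 1038 and 1322 FPKM in A libraries and at 546.5, 647 and 1259 FPKM in G libraries, with the retained-intron form ENST00000525340 high where it was low, at 386 and 396 FPKM in G replicates 1 and 2. Transcript values of these genes differed more between libraries than the gene values did, also within a group.

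Other members showed the same kind of spread. The top transcript of EIF4A2, ENST00000425053, is annotated as a target of nonsense-mediated decay and held 38.5% to 49.7% of the gene's transcript FPKM, while its coding transcript ENST00000440191 was at 15.0, 15.1 and 17.1 FPKM in A libraries and at 28.3, 29.5 and 18.9 FPKM in G libraries, without overlap (limma adjusted p = 0.55 over all transcripts). The top transcript of EEF1D, ENST00000529007, also a decay target, was at 125, 157 and 3.39 FPKM in A libraries and at 117 to 132 FPKM in G libraries. Of EIF2S3, the short noncoding ENST00000487075 was at 57.9 and 58.0 FPKM in A replicates 2 and 3 but at 0.781 FPKM in A replicate 1 and 0.927 to 1.16 FPKM in G libraries. It was chosen here after its values were seen, because it was the 1 member transcript called once A replicate 1 was left out (limma adjusted p = 0.0148). EIF2S3 as a gene did not separate the groups.

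**Figure D5:**
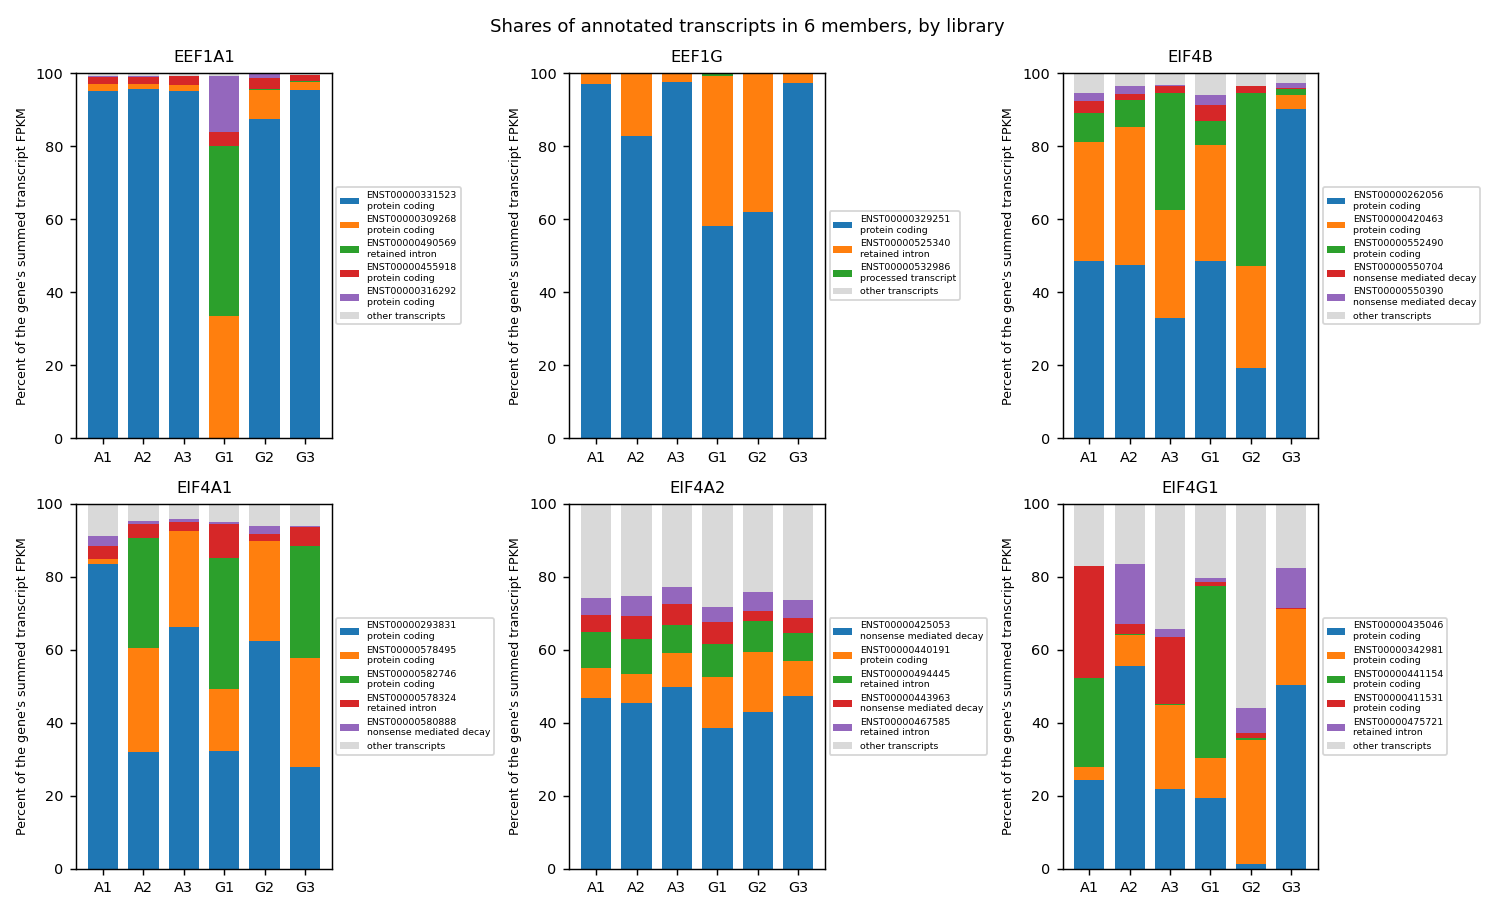
Share of each gene's summed transcript FPKM (vertical axis, percent) held by its leading transcripts in each of the 6 libraries, for 6 members; each colour is 1 transcript and grey stands for all others. In G replicate 1 the usual leading transcript of EEF1A1 is replaced by others, EEF1G has a larger retained-intron share in G replicates 1 and 2, and EIF4A2 is led by the same decay target throughout.

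Several members have processed pseudogenes that were listed at sizeable levels. Beside EIF4E, those of EIF3F held 61.3% of the sum of gene and pseudogenes and those of EIF1AX 47.9%. The 37 processed pseudogenes of EEF1A1 summed to 426 to 541 FPKM, 28.8% of the sum of gene and pseudogenes. With them added, EEF1A1 was at 1767 ± 35.5 FPKM in A libraries and 1651 ± 106 FPKM in G libraries (SD, n = 3), a change of -0.10 (exact two-sided permutation p = 0.2), where EEF1A1 alone gave -0.13 (p = 0.3 by the same exact test). Reads of the gene and of its copies cannot be told apart with certainty in these tables.

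Genes around this machinery were also not called, in any of 7 further lists. Of the kinases and phosphatase subunits that set eIF2 phosphorylation, 5 of 6 changes were positive, with a median of 0.18. Over all tested genes 7045 of 12787 were positive. All G libraries were higher for 2 of the 6 (background 15.4%). PPP1R15A (GADD34), the stress-induced subunit that directs dephosphorylation of eIF2, was at 31.6, 29.01 and 29.9 FPKM in A libraries and at 35.7, 33.5 and 34.8 FPKM in G libraries, all G libraries higher (limma adjusted p = 0.20). PPP1R15B, its constitutive counterpart, was at 23.4, 21.1 and 20.6 FPKM against 26.1, 24.2 and 25.99 FPKM, again without overlap (limma adjusted p = 0.21).

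Of 14 inputs from mTORC1, S6 kinase and MNK, 8 changes were positive and the median was 0.0062. All G libraries were higher for 3 of the 14 (background 15.4%) and lower for 1 (background 9.57%). DEPTOR, an inhibitor of mTOR, was at 5.28, 4.92 and 4.88 FPKM against 6.38, 6.28 and 5.57 FPKM, higher in all G libraries (limma adjusted p = 0.21), and MLST8, an mTOR partner, was at 7.00 ± 0.52 against 6.21 ± 0.29 FPKM (SD, n = 3 each). Of the 4 hypusine enzymes and other helicases, 1 had all G libraries higher (background 15.4%). It was DDX3X, at 4.63, 3.81 and 4.18 FPKM against 5.28, 5.33 and 5.36 FPKM (limma adjusted p = 0.19), and DHX29 overlapped.

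Factors of later steps were not called either. For their directions the background is the 44.9% of all tested genes that were negative. Of 7 tested termination and recycling factors 1 was negative, with a median of 0.04, and HBS1L and ABCE1, with the smallest p-values there, overlapped. Of 5 poly(A)-binding genes 4 were negative with a median of -0.05; the smallest p-values were those of PABPC4 at 28.4 ± 0.71 against 27.4 ± 0.24 FPKM and of PAIP2B, the positive one, at 1.78 ± 0.27 against 1.99 ± 0.24 FPKM (SD, n = 3 each).

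Of 9 mitochondrial translation factors 5 were negative (background 44.9%), and for 1 all G libraries were lower (background 9.57%). TUFM, the mitochondrial counterpart of eEF1A, was at 106, 107 and 103 FPKM in A libraries and at 96.8, 97.2 and 93.5 FPKM in G libraries, lower in all G libraries (limma adjusted p = 0.22), and MRRF overlapped. Of 20 cytosolic tRNA synthetases 11 were negative, and for 4 all G libraries were lower (background 9.57%). Among the latter were HARS and MARS, at 5.26 ± 0.17 against 4.51 ± 0.14 FPKM and at 10.7 ± 0.45 against 9.39 ± 0.52 FPKM (SD, n = 3 each, limma adjusted p = 0.22 and 0.27).

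The authors' deposited table marked 0 of the 67 members as significant, of 216 genes marked in all. The same table gave 2 members a p-value under 0.05, EEF1AKMT4 and EEF1AKMT2, and 844 of all 58825 genes, and the smallest q-value of a member was 0.811.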

How the data were processed

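Poly(A) RNA of 6 PC9 libraries was sequenced as read pairs on a strand-marking (dUTP) protocol, per the labels' protocols. Per the submitters' processing notes, the tools were cutadapt 1.9, HISAT2 2.0.4 and, for assembly and abundance, StringTie 1.3.4d. Those notes name a mouse build, but 668 of 717 member transcripts (93.6%) had the same GRCh38 position and strand in GENCODE 29, so positions are given on GRCh38. The strand setting is not given in the sources used here.

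The authors deposited FPKM for genes and for transcripts, where 0.0001 stands for no estimate. Per the file headers, the authors' q-value, p-value, fold ratio and log2 of that ratio stand beside it in both tables. Of low values, 31.5% to 33.8% were whole multiples of 1 read pair within 0.02, so read numbers could not be recovered, which leaves out any count model.

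The log2(FPKM + 1) values of genes at 1 FPKM or more in 3 or more of the 6 libraries were tested with limma 3.58.1 (R 4.3.3, intensity trend, Benjamini-Hochberg over all 12787 genes), with transcripts fitted separately. Copies were summed and tested with an exact permutation test. The code was tested on simulated data. Summaries were made in Python 3.11.15 (pandas 2.3.3).

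The members and lists were chosen with earlier results of these data known. Values in every library are given for the 10 members with the smallest unadjusted p, the most abundant member of each role, and paralogue pairs. Of each other list the 2 genes with the smallest p are named. Members printed beyond these (EEF1B2, EEF1D, EIF2D, EIF3F, EIF3J, EIF4B and EIF2S3B), and the transcripts, were chosen after their values were seen. Alternatives changed the pseudocount, filter, scaling, variance model, weights, replicate block, libraries and handling of copies.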

Additional observations from a re-analysis of the deposited data

How the results depend on the processing

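No member was called under any of the settings run, while the count over all genes moved. It was 14 as reported, 9 with no filter on low values, 4 without the intensity trend, 6 with quantile normalization, 0 with the replicate block and 54 by the authors' deposited q-value. Of the alternatives added after seeing the data, summed transcript FPKM gave 2, and equal FPKM sums without mitochondrial genes gave 6. Leaving out 1 library gave 2 to 14 (4 without A replicate 2, 2 without A replicate 3, 6 without G replicate 2, 5 without G replicate 3). Member transcripts called lower were 0, and 0 to 1 with 1 library left out. Deviations of same-numbered A and G libraries correlated at 0.073, 0.015 and 0.040, and those of differently numbered ones at -0.056 to 0.016. Values this weak cannot decide whether replicate numbers pair the libraries. The block is given as a count only.

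The median change of the members was -0.03 as reported, 0.012 with equal sums without mitochondrial genes, 0.067 with equal sums and -0.0059 with quantile normalization. Of the 62 tested members, 23 turned sign with equal sums (all to positive). Summed FPKM was 274567 ± 3861 in the A group and 254615 ± 812 in the G group (SD, n = 3 each). Equal sums therefore raise G relative to A for every gene by construction. With quantile normalization 12 members turned sign, 12 with transcript FPKM summed and 4 to 10 with 1 library left out, the cause not tested. Among the 30 members followed singly, with equal sums EEF1B2 was at 0.025, EEF1G at 0.0030, EEF2 at 0.055, EIF3I at 0.040, EIF4A1 at 0.041 and EIF4G1 at 0.053. With quantile normalization EEF1A1 was at 0.071, EEF1G at 0.21, EEF2 at 0.038 and EIF3I at 0.0056. With transcript FPKM summed EEF1D was at 0.098, EIF3H at 0.017 and EIF3J at 0.24. With 1 library left out EIF4A1 ranged from -0.28 to 0.076, EIF4G1 from -0.099 to 0.023, EIF4G2 from -0.0068 to 0.13 and EIF5A from -0.0039 to 0.20. Summed with its copy EIF2S3B, EIF2S3 was at 0.0095. EIF4EBP3 was at -0.041 alone and at 0.23 when summed with the readthrough gene ANKHD1-EIF4EBP3, which is not a copy of it. That sum is mostly the readthrough gene, at 8.19 to 11.2 FPKM where EIF4EBP3 was at 0.084 to 0.857 FPKM. Depth is an estimate, so no counting error is given.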

Other observations

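The processed pseudogenes with the names of these factors, which are not members, leaned lower in G. Of 127 rows, 21 were tested, 16 of them with a negative change (44.9% of all tested genes were negative) and a median of -0.12, and 0 were called. For 7 the G libraries were all lower than the A libraries (9.57% of all tested genes), and for 0 they were all higher (15.4%). EIF5AP4 was at 14.1, 16.4 and 13.7 FPKM in A libraries and at 9.82, 11.2 and 10.6 FPKM in G libraries (limma adjusted p = 0.159), and EIF4BP6 at 8.79, 8.09 and 7.66 FPKM against 6.31, 6.41 and 5.17 FPKM (limma adjusted p = 0.18). Some of these rows are as high as their parent gene: EIF3FP3 was at 32.2 ± 2.33 and 28.3 ± 0.32 FPKM (SD, n = 3 each) where EIF3F was at 20.8 ± 4.06 and 17.6 ± 0.46 FPKM. How much of this is read assignment between parent and copy was not tested.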
